A study of Mus musculus with 6 samples.

Results

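The 46 genes described here encode the matrix metalloproteases (MMPs), the ADAMTS proteases and the tissue inhibitors of metalloproteases (TIMPs). They were taken by name alone, as every protein-coding mouse gene called Mmp, Adamts or Timp plus a number and an optional letter, without the Adamtsl genes. Of the 23073 genes with a value, 23 were MMP genes, 19 were ADAMTS genes and 4 were TIMP genes. Expression had been measured by RNA-Seq in diaphragm muscle of mouse embryos at E14.75, in 3 groups of 2 libraries. The erbB3 WT group held total RNA of whole diaphragm, and the erbB3 mutant group (erbB3 KO in the labels) held total RNA of diaphragm that the labels describe as lacking Schwann cells, the glia of peripheral nerve. The Wnt1-Ribotag group carried Wnt1-Cre and the Ribotag allele on an erbB3 WT background, and its RNA was pulled down on polysomes with an antibody against hemagglutinin. Wnt1-Cre acts in the neural crest lineage as a whole, each Ribotag library pooled diaphragms of a litter in which some embryos lacked Cre, and its RNA input was far smaller than that of whole muscle.

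MMPs are zinc-dependent endopeptidases that cleave collagens, other matrix proteins and proteins at the cell surface, and most are made as inactive precursors. ADAMTS proteases are secreted zinc proteases that trim procollagens or cut proteoglycans such as versican and aggrecan. TIMPs bind the catalytic zinc site and inhibit MMPs, and Timp3 also inhibits several ADAMTS proteases. In embryonic muscle these enzymes are known for remodelling the connective tissue around fibers, nerves and tendons, and some MMPs cleave agrin and other components of the neuromuscular junction.

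The proteases share a zinc site that the choice by name did not use. In the GENCODE M21 coding sequences, the longest open reading frame of each gene was searched for 11 codons (33 bases) that hold histidine, glutamate, any pair, histidine, any pair, glycine or asparagine, any pair and histidine in that order. The site was found in 41 of the 42 proteases, Adamts8 being the gene without a match. At the 8th of the 11 codons, all 23 MMP genes had a glycine codon, whereas 13 ADAMTS genes had glycine and 5 had asparagine (Adamts1, Adamts4, Adamts9, Adamts15 and Adamts20). These 5 all belong to the group that cleaves hyalectans, the proteoglycans that bind hyaluronan, and that group also held Adamts5, which had glycine. The sites of proteases on which the results below turn, with examples of both codons, are given 5′ to 3′ on the coding strand, with the 3 histidine codons and the 8th codon in capitals, beginning for example at codon 403 of Mmp2, codon 247 of Mmp17 and codon 402 of Adamts1.
Mmp2: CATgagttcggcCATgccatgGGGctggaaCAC
Mmp14: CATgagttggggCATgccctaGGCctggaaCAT
Mmp15: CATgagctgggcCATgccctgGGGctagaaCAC
Mmp24: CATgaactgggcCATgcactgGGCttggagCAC
Mmp17: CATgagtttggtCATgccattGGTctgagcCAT
Mmp11: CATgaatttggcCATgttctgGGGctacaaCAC
Adamts2: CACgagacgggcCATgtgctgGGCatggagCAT
Adamts10: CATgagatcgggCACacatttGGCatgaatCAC
Adamts1: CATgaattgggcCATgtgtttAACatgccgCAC
Adamts9: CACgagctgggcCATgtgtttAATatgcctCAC
Adamts15: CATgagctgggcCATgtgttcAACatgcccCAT

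The libraries held 100178863 to 230216660 mapped reads, as computed from the value of 1 read, and 17205 to 20349 genes were not marked as being at that floor. Values are RPKM, reads scaled by the length of the gene and by the mapped reads of the library, so that levels of different genes can be set side by side within a library. Sox10, which marks Schwann cells, stood at 2.89 and 2.16 RPKM in the WT libraries, at 0.00854 and 0.0178 in the mutant libraries and at 15.5 and 32.2 in the Ribotag libraries. Erbb3 itself did not separate the genotypes, at 16.5 and 15.8 RPKM in WT against 21.5 and 11.9 in the mutant (limma adjusted p = 0.992). Skeletal muscle RNA remained in the Ribotag libraries, with a summed RPKM of 3138 and 2854 over 12 muscle markers against 3554 and 2873 in WT. A list of 12 hepatocyte markers summed to 555 and 171 RPKM in WT, 21.6 and 13.4 in the mutant and 313 and 212 in the Ribotag libraries, so both mutant libraries lay under the other 4.

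Expression of the 46 genes reached 137 RPKM, with a few genes holding a large part of the signal. At the low end, at least 7 of the 276 values lay under the value of 1 read without being marked as floor values, such as Mmp1b in both WT libraries. The value of 1 read was known only for genes with a floor mark in some library, so other genes could not be checked. In WT muscle, 9 genes had a mean of at least 20 RPKM, 9 lay between 5 and 20, 11 between 1 and 5, 3 between 0.5 and 1, and 14 were under 0.5. Mmp2 (gelatinase A), Mmp14 (a membrane-anchored collagenase that activates the Mmp2 precursor) and Timp2 (which bridges Mmp14 and that precursor) together made up 44.5% and 44.7% of the summed RPKM of all 46 genes in the WT libraries. Across the libraries, 34 genes were never marked as being at the 1-read floor and 12 were marked in at least 1 library, with Mmp7 (matrilysin) marked in all 6.

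Mmp2 was the gene with the highest mean in WT muscle, at 83.9 and 98.7 RPKM, with 66.4 and 69.2 in the mutant and 59.0 and 60.6 in Ribotag RNA. Its WT libraries lay above the other 4 without overlap. Mmp14 stood at 68.0 and 70.1 RPKM in WT, 62.1 and 41.6 in the mutant and 88.5 and 56.9 in Ribotag RNA. Timp2 stood at 59.2 and 67.2 RPKM in WT, 46.5 and 40.1 in the mutant and 137 and 61.0 in Ribotag RNA. In WT the order Mmp2, Mmp14, Timp2 and Mmp11 was free of overlap between neighbours, whereas in Ribotag RNA the 12 highest genes, led by Timp2, each overlapped the next in the order.

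Mmp11 (stromelysin-3) followed at 30.7 and 33.7 RPKM in WT. Adamts10, Adamts9, Adamts15, Timp3 and Adamts1 then formed a run from 26.7 down to 21.6 RPKM (WT means) in which each overlapped its neighbour. Mmp23 had a WT mean of 16.2 RPKM ± 0.539 (SD, n = 2), and Adamts2, a procollagen N-proteinase, had 13.3 ± 0.434 (SD, n = 2).

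The 10 MMP genes of the cluster on chromosome 9 (chr9:7272514-7699585, GRCm38) were nearly silent. These were Mmp13, Mmp12, Mmp1b, Mmp3, Mmp1a, Mmp10, Mmp8, Mmp27, Mmp20 and Mmp7, which include the interstitial collagenases and most of the stromelysins. Their highest value was 0.139 RPKM, for Mmp8 in the second WT library, and 29 of their 60 values were at the floor. The other neighbours in the genome were all expressed above 1 RPKM. Adamts1 and Adamts5 (chr16:85793827-85901828) ranged from 5.27 to 24.9 RPKM, whereas of Adamts15 and Adamts8 (chr9:30899155-30963838) the former ranged from 15.4 to 25.8 RPKM and the latter from 1.43 to 3.33. Low levels were also seen outside the cluster for Mmp21, Mmp25, Timp4 and Adamts13, the protease of von Willebrand factor. Mmp25 was nevertheless at 0.534 RPKM in Ribotag library 1 against 0.0108 in Ribotag library 2, a ratio of 49.4 between replicates (Mmp25 is named here after its values were seen).

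**Figure D1:**
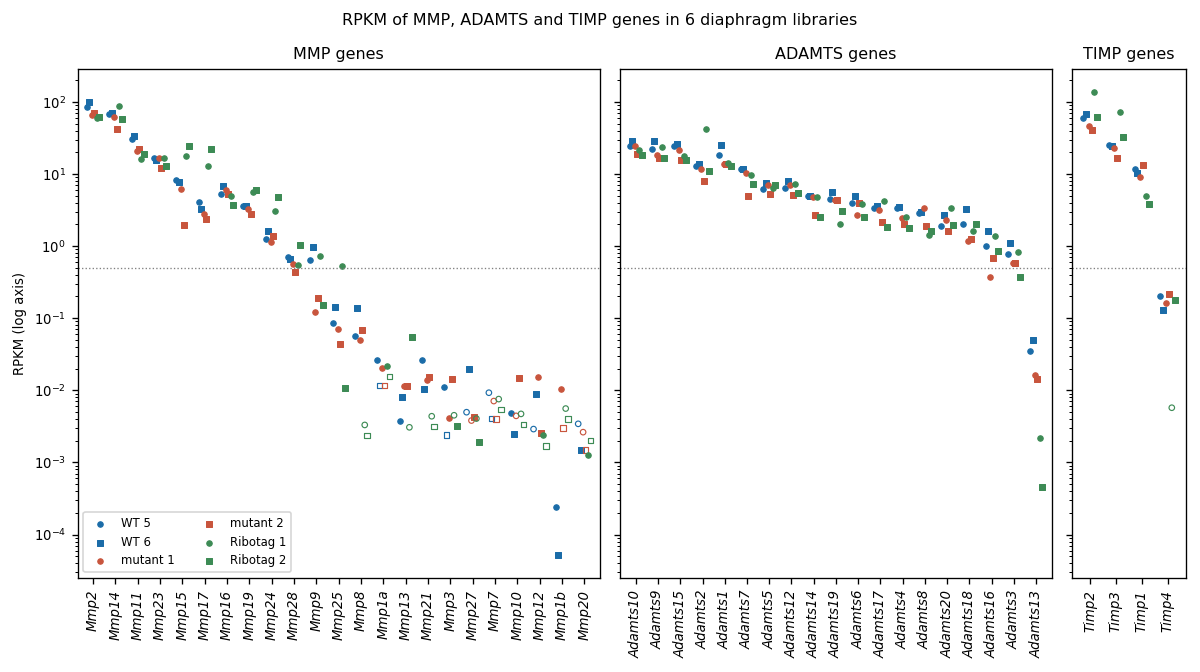
RPKM on a log axis for the 23 MMP, 19 ADAMTS and 4 TIMP genes in each of the 6 libraries, ordered by mean within a family. Colors mark the groups, circles and squares the first and second library of a group, open symbols a value at the 1-read floor, and the dotted line the mean of 0.5 RPKM needed for a test. The steep fall at the right of the MMP panel holds the silent cluster with Mmp25 and Mmp21, and both green points lie above the rest for Mmp15, Mmp17, Mmp24, Mmp19 and Timp3.

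The first comparison asked which of these genes differed between diaphragm with and without Schwann cells. In the erbB3 mutant, none of the 31 genes that could be tested passed the threshold, an adjusted p under 0.05 in limma over all 14052 genes tested, against 0.171% of all genes (24 genes, of which 0.0498% higher and 0.121% lower). All 31 fitted changes lay below 0, against 67.0% of all genes. At an unadjusted p under 0.05, 12 of the 31 were lower and 0 were higher, against 9.66% and 2.38% of all genes. In 21 of the 31, both mutant libraries lay under both WT libraries, against 37.4% of all genes, and 0 lay the other way, against 12.7%. The median log2 fold change was −0.39 over the 31 genes and −0.10 over all genes. With libraries scaled by their median ratio, these medians were −0.31 and −0.001, and 29 of 31 changes lay below 0, Timp1 and Mmp16 being above it, while after quantile normalization the medians were −0.25 and 0.00396 and 27 of 31 changes lay below 0. Fewer cells of a type and less RNA per cell cannot be told apart in whole muscle.

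Mmp15, a transmembrane MMP, had the most negative fitted change. Its RPKM was 8.25 and 7.61 in WT and 6.15 and 1.98 in the mutant. Both mutant libraries were lower, and the mutant libraries differed 3.10-fold from each other. The log2 fold change was −1.05 (SE 0.39, limma adjusted p = 0.385). Without mutant library 2 it was −0.34 (limma adjusted p = 0.495). Without mutant library 1 it was −1.76 and past the threshold (limma adjusted p = 0.0297), a fit in which the remaining mutant library is taken to vary like the WT pair.

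Adamts7, which cleaves the cartilage oligomeric matrix protein COMP, had the same form. It stood at 11.8 and 11.7 RPKM in WT and at 10.4 and 4.92 in the mutant, with mutant library 2 apart from the other 3. The log2 fold change was −0.68 (SE 0.29, limma adjusted p = 0.410). It was −0.18 without mutant library 2 (limma adjusted p = 0.716) and −1.18 without mutant library 1 (limma adjusted p = 0.0459). Mutant library 2 was the lower of the pair for 22 of the 31 genes, against 60.4% of all genes, and Mmp15 and Adamts7 were the 2 genes with a ratio of at least 2, which 1.97% of all genes reached. Without mutant library 2 the median over the 31 genes was −0.20, with −0.06 over all genes, and without mutant library 1 these were −0.52 and −0.15.

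Other genes were lower in both mutant libraries to a like extent. Mmp11 had 30.7 and 33.7 RPKM in WT and 20.7 and 22.1 in the mutant, a log2 fold change of −0.58 (SE 0.13, limma adjusted p = 0.171). That was the smallest adjusted p of the 31. Mmp11 shares 5.6% of its exon bases with Chchd10 on the other strand, and whether reads were counted by strand is not known. In all, 11 members share exon bases in this way with a measured gene. Adamts1, a versican-cleaving protease, had 18.4 and 24.9 RPKM in WT and 13.6 and 13.5 in the mutant (log2 fold change −0.64, SE 0.17, limma adjusted p = 0.246). For Timp2 the log2 fold change was −0.54 (SE 0.14, limma adjusted p = 0.261), and for Mmp2 it was −0.42 (SE 0.14, limma adjusted p = 0.369). In each of these 4 genes the groups did not overlap.

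Medians of the classes lay on the same side, with and without median-ratio scaling. The 7 hyalectan-cleaving ADAMTS genes had a median of −0.44, the 3 procollagen N-proteinases −0.41, the 5 tested membrane-bound MMPs −0.42 and the 3 tested TIMPs −0.32 on the log2 scale. Adamts9 had 22.3 and 28.5 RPKM in WT and 18.1 and 16.6 in the mutant, and Adamts15 had 24.1 and 25.8 against 21.2 and 15.7. Adamts2 had 13.0 and 13.6 RPKM in WT and 11.8 and 8.02 in the mutant. All 3 were lower in the mutant without overlap.

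Adamts5, Adamts12, Adamts10, Mmp16, Mmp23 and Mmp24 overlapped between the genotypes. Adamts5 had 6.25 and 7.58 RPKM in WT and 6.98 and 5.27 in the mutant, Adamts12 had 6.45 and 7.90 against 7.01 and 5.10, and Adamts10 had 24.5 and 29.0 against 24.5 and 18.7. Mmp16 had 5.29 and 6.86 RPKM in WT and 5.98 and 5.24 in the mutant, and Mmp23 had 16.6 and 15.8 against 16.4 and 12.3. Timp1, a soluble inhibitor of most MMPs, stood at 11.8 and 10.4 RPKM in WT and at 9.18 and 13.1 in the mutant, with a log2 fold change of −0.01 (SE 0.19, limma adjusted p = 0.982).

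The weakly expressed Adamts18 and Adamts16, singled out after their values were seen, had fitted changes of −0.86 and −0.82. Adamts18 was at 2.03 and 3.26 RPKM in WT and at 1.16 and 1.24 in the mutant, and Adamts16 at 0.995 and 1.63 against 0.370 and 0.677. Both were lower in both mutant libraries, with limma adjusted p of 0.210 and 0.290. Mmp9 (gelatinase B), also chosen by its values, had 0.643 and 0.983 RPKM in WT and 0.121 and 0.193 in the mutant, and was too low to be tested between the genotypes. In the fit without the filter on low values its log2 fold change was −0.99 (limma adjusted p = 0.356).

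**Figure D2:**
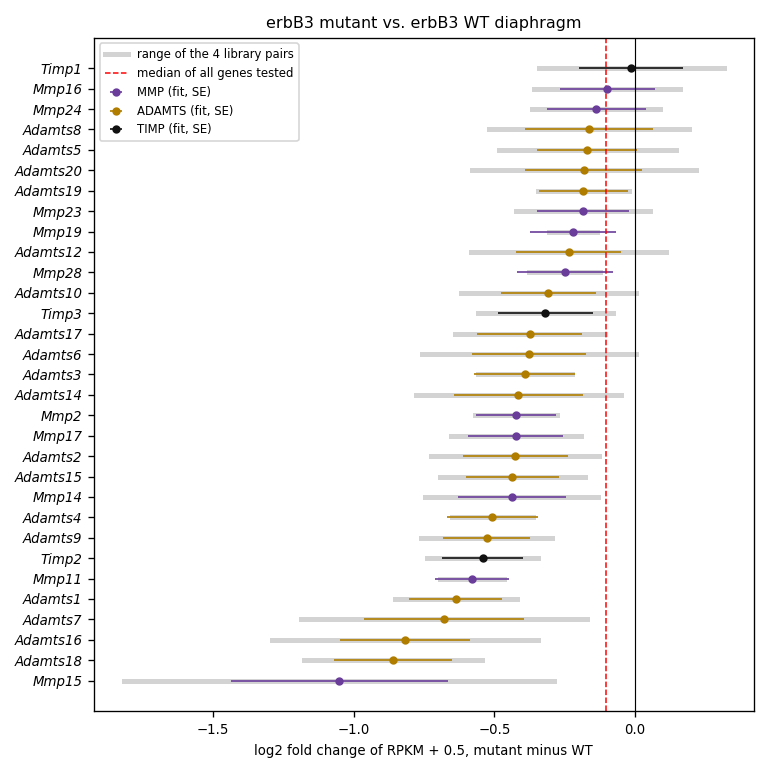
Fitted log2 fold change of RPKM + 0.5, mutant minus WT (points, with SE), for the 31 genes tested, and the range of the 4 differences between single libraries (grey bars). With the deposited scaling all points lie below 0, and most lie below the median of all genes tested (red dashed line, −0.10).

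Markers of other cells differed between the genotypes in different ways, and their part in these differences was not tested. Skeletal muscle markers, which summed to 3554 and 2873 RPKM in WT, summed to 5937 and 4038 in the mutant, and 10 of the 12 lay above 0 (median log2 fold change 0.23), opposite in sign to the proteases and TIMPs. Of 9 erythroid markers, 8 lay below 0 (median −0.51). Connective tissue, a main source of matrix proteases, summed to 2363 and 2309 RPKM over 12 markers in WT and 2511 and 1833 in the mutant, and the median of their log2 fold changes was −0.06, or 0.05 under median-ratio scaling. Of 12 macrophage markers, 8 lay below 0, close to the 67.0% of all genes, with a median of −0.04, or 0.07 under median-ratio scaling (summed RPKM 229 and 200 in WT, 179 and 226 in the mutant). All 6 tested neutrophil markers lay below 0, and their list summed to 17.7 and 10.8 RPKM in WT against 2.15 and 17.0 in the mutant. All 8 tested neuron markers lay below 0 (14.6 and 70.1 RPKM in WT, 9.16 and 12.7 in the mutant), as did all 9 tested Schwann cell markers (60.5 and 53.2 against 47.0 and 25.8) and all 11 tested hepatocyte markers. Of the 9 tested tendon markers 5 lay above 0, and 2 of them, Tnmd and Kera, passed the threshold (limma adjusted p = 0.00821 and 0.0107). Neither passed it in a fit of all 6 libraries (limma adjusted p = 0.410 and 0.431) or with no filter on low values (limma adjusted p = 0.188 and 0.237), where 0 genes did, nor did Kera without mutant library 2 (limma adjusted p = 0.0514).

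Most genes for proteins that act with the members also lay below 0 in the mutant, as did 67.0% of all genes, whose median was −0.10. Among activators and other inhibitors, 21 of 23 tested genes lay below 0, their median being −0.34 on the log2 scale. Of other members of the metalloprotease families, among them the catalytically inactive Adam23, all 14 tested lay below 0 with a median of −0.36, and of matrix substrates 19 of 22, with a median of −0.30. Under median-ratio scaling these medians were −0.23, −0.26 and −0.18, against −0.001 for all genes. No gene of these lists passed the threshold, against 0.171% of all genes. The highest in each list were Bsg (basigin, an inducer of MMPs), Bmp1 (the procollagen C-proteinase) and Col3a1. Bsg had 169 and 158 RPKM in WT and 157 and 153 in the mutant, and Bmp1 had 48.1 and 51.8 against 42.5 and 32.5. Lrp1, the receptor that clears MMPs and TIMPs, had 27.1 and 29.0 RPKM in WT and 21.8 and 14.3 in the mutant (log2 fold change −0.65, SE 0.19, limma adjusted p = 0.310).

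The second comparison set RNA on tagged ribosomes against whole muscle of the same erbB3 genotype, and asked which genes were higher or lower in the tagged-ribosome RNA. Cell lineage and RNA preparation differ together between these groups, so their effects cannot be told apart. The second comparison shares the WT libraries with the comparison above, so the results are not independent of each other. None of 32 genes tested passed the threshold, against 0.00694% of all genes (1 of 14418). At an unadjusted p under 0.05 there were 4 higher and 7 lower, against 8.19% and 11.3% of all genes. The Ribotag libraries lay above both WT libraries in 5 genes (Mmp15, Mmp17, Mmp19, Mmp24 and Timp3), against 23.3% of all genes, and below both in 13, against 31.0%. Fitted changes lay below 0 for 22 of the 32, against 54.4% of all genes. The median log2 fold change was −0.37 over the 32 genes and −0.05 over all genes. These medians depended on single libraries, at −0.56 and 0.02 without Ribotag library 1, −0.21 and −0.03 without WT library 6, and −0.09 and −0.14 without Ribotag library 2, where the 32 genes lay above all genes.

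Of the 5 tested membrane-bound MMPs, 4 had a fitted change above 0, with a median of 1.17 on the log2 scale. Mmp17, which is held to the membrane by a lipid anchor (chr5:129584169-129611099, plus strand, GRCm38), stood at 4.05 and 3.25 RPKM in WT and at 13.0 and 22.3 in Ribotag RNA. Both Ribotag libraries were above every library of whole muscle. The Ribotag mean was 484% of the WT mean, and the log2 fold change was 2.09 (SE 0.30, limma adjusted p = 0.148). In a fit of all 6 libraries together, the same difference had a limma adjusted p of 0.0331, and 0.957% of all genes passed.

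Mmp15 (chr8:95352268-95375080, plus strand) had 8.25 and 7.61 RPKM in WT and 17.6 and 24.8 in Ribotag RNA (log2 fold change 1.35, SE 0.22, limma adjusted p = 0.152). Mmp24 (chr2:155775342-155818366, plus strand), which is best known from the nervous system, had 1.26 and 1.62 RPKM in WT and 3.10 and 4.72 in Ribotag RNA (log2 fold change 1.17, SE 0.29, limma adjusted p = 0.180). For both genes, as for Mmp17, Ribotag library 2 was the higher of the pair and the groups did not overlap. Of the exon bases of Mmp24, 13.6% are shared with a gene on the other strand, BC029722, and the sources used here do not say whether reads were counted by strand.

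The remaining 2 tested membrane-bound MMPs differed from these. Mmp14 overlapped between the groups, with a log2 fold change of 0.04 (SE 0.25, limma adjusted p = 0.947). Mmp16 had 4.88 and 3.65 RPKM in Ribotag RNA against 5.29 and 6.86 in WT, so both Ribotag libraries were lower (log2 fold change −0.47, SE 0.24, limma adjusted p = 0.350). Mmp19, an MMP outside the membrane-bound class and named here after its values were seen, had 3.60 and 3.60 RPKM in WT and 5.55 and 6.01 in Ribotag RNA (log2 fold change 0.61, SE 0.19, limma adjusted p = 0.205). It shares 22.3% of its exon bases with Tmem198b on the other strand.

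The TIMPs had fitted changes of opposite sign in Ribotag RNA. Timp3, the matrix-bound TIMP, had 25.0 and 24.3 RPKM in WT and 71.9 and 32.4 in Ribotag RNA, higher without overlap but 2.22-fold apart between the Ribotag libraries (log2 fold change 0.96, SE 0.39, limma adjusted p = 0.268). The gene lies within Syn3, which is on the other strand and shares 21.3% of its exon bases. Timp2 was 2.24-fold apart between the Ribotag libraries, and the lower of them fell within the WT range (log2 fold change 0.53, SE 0.40, limma adjusted p = 0.498). Timp1 (chrX:20870166-20874735, plus strand) had 11.8 and 10.4 RPKM in WT and 4.98 and 3.83 in Ribotag RNA, both lower, with a log2 fold change of −1.25 (SE 0.21, limma adjusted p = 0.152).

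Among secreted MMPs, Mmp11 had 16.1 and 18.8 RPKM in Ribotag RNA against 30.7 and 33.7 in WT (log2 fold change −0.87, SE 0.17, limma adjusted p = 0.170). Mmp2 had a log2 fold change of −0.60 (SE 0.17, limma adjusted p = 0.194). Both were lower in Ribotag RNA without overlap. Mmp23, which is made with a membrane anchor, had 16.7 and 12.9 RPKM in Ribotag RNA and overlapped with WT.

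Of 18 ADAMTS genes tested, 16 lay below 0, with a median log2 fold change of −0.42. Adamts1 had 14.3 and 13.1 RPKM in Ribotag RNA, Adamts15 had 18.0 and 15.4, Adamts10 had 21.2 and 18.1 and Adamts7 had 9.54 and 7.31. All 4 were below both WT libraries. Adamts9 (23.4 and 16.7 RPKM), Adamts5 (6.46 and 7.08) and Adamts12 (7.26 and 5.47) overlapped with WT. Adamts2 was split between the Ribotag libraries, at 42.0 RPKM in library 1 and 10.8 in library 2, a 3.88-fold ratio with the 2 WT libraries between them. Its log2 fold change of 0.67 carried an SE of 0.62 (limma adjusted p = 0.578).

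Differences between the Ribotag libraries reached at least 2-fold, with library 1 the higher, for Adamts17, Adamts2, Adamts3, Mmp9, Timp2 and Timp3, which are 6 of 32 genes against 7.14% of all genes. When 1 Ribotag library was left out and the other was taken to vary like the WT pair, 17 of the 32 genes (without library 1) or 13 (without library 2) passed the threshold, but so did 30.5% and 40.6% of all genes. Mmp17, Mmp15, Mmp24, Mmp19, Timp1, Mmp11, Mmp2, Adamts15 and Adamts8 were among them either way. When a WT library was left out instead, 0 of the 32 genes passed (0.125% of all genes without WT library 5 and 0.368% without WT library 6), and the limma adjusted p of Mmp17 was 0.139 and 0.132. Without Ribotag library 1, the log2 fold change was 2.47 for Mmp17 and 1.58 for Mmp15 (limma adjusted p = 0.00346 and 0.00416). Without Ribotag library 2, it was 1.71 and 1.11 (limma adjusted p = 0.00353 and 0.00485).

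**Figure D3:**
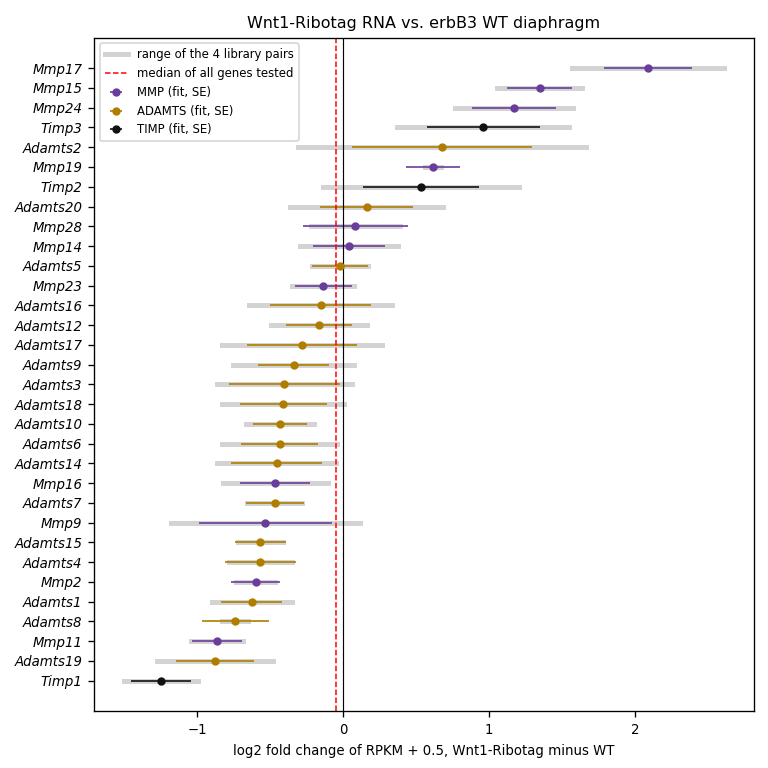
Fitted log2 fold change of RPKM + 0.5, Wnt1-Ribotag minus WT (points, with SE), for the 32 genes tested, and the range of the 4 differences between single libraries (grey bars). Mmp17, Mmp15 and Mmp24 lie farthest to the right and Timp1 farthest to the left, and the widest grey bars belong to genes whose Ribotag libraries stood apart.

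Marker lists in Ribotag RNA were again given beside these values, with their part in the differences not tested. Schwann cell markers summed to 182 and 396 RPKM (12 of 12 above 0 against WT, median log2 fold change 2.69), and neuron markers to 123 and 551 RPKM (10 of 10 tested, median 2.64), with Ribotag library 2 the higher in both lists. That library was the lower of the pair for 38.7% of all genes and for 21 of the 32 genes tested here. Connective tissue markers summed to 1757 and 1871 RPKM, with 8 of 12 below 0. Macrophage markers summed to 124 and 105 RPKM, all 12 of them below 0 with a median of −0.88, and mesothelium markers to 96.2 and 77.5 RPKM, all 9 below 0.

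The third comparison set Ribotag RNA against mutant muscle, so that the effect of erbB3 genotype cannot be told apart from that of RNA preparation. It shares its libraries with both comparisons above. Mmp17 rose past the threshold and was the single gene of 31 to do so, against 1.19% of all genes (171 of 14325) in either direction and 1.02% with higher values. Its 13.0 and 22.3 RPKM in Ribotag RNA stood against 2.78 and 2.39 in the mutant, 683% of the mutant mean, with no overlap (log2 fold change 2.51, SE 0.31, limma adjusted p = 0.0227). Leaving out any 1 of the 4 libraries gave log2 fold changes from 2.13 to 2.89, each past the threshold. With no filter on low values the adjusted p was 0.0967 and the call was lost. Between mutant and WT muscle, Mmp17 had a log2 fold change of −0.42 (SE 0.17, limma adjusted p = 0.399), lower in the mutant without overlap.

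Mmp15 had 17.6 and 24.8 RPKM in Ribotag RNA against 6.15 and 1.98 in the mutant (log2 fold change 2.40, SE 0.47, limma adjusted p = 0.0779), and Mmp24 had 3.10 and 4.72 against 1.15 and 1.37 (log2 fold change 1.30, SE 0.31, limma adjusted p = 0.117). Both were higher in Ribotag RNA without overlap and did not pass. In the fit of all 6 libraries, 4 genes passed, namely Mmp15, Mmp17, Mmp24 and Timp1, against 4.83% of all genes. For Mmp15 the value was 3.11 without mutant library 1 (limma adjusted p = 0.00565) and 1.69 without mutant library 2 (limma adjusted p = 0.148), and it passed without either Ribotag library (limma adjusted p = 0.00909 and 0.0167).

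Timp3 had a log2 fold change of 1.28 (SE 0.39, limma adjusted p = 0.174) and Timp2 of 1.07 (SE 0.38, limma adjusted p = 0.211), each with both Ribotag libraries above both mutant libraries. Without Ribotag library 2 these were 1.84 and 1.65 and past the threshold (limma adjusted p = 0.0015 and 0.00153), whereas without Ribotag library 1 they were 0.71 and 0.49 and did not pass (limma adjusted p = 0.0825 and 0.149). Adamts2 had 42.0 and 10.8 RPKM against 11.8 and 8.02, overlapping, with a log2 fold change of 1.10 (SE 0.58, limma adjusted p = 0.352). It was 2.05 without Ribotag library 2 (limma adjusted p = 0.00134) and 0.15 without Ribotag library 1 (limma adjusted p = 0.749). Timp1 lay on the other side, at 4.98 and 3.83 RPKM against 9.18 and 13.1 (log2 fold change −1.24, SE 0.28, limma adjusted p = 0.105).

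In all, the Ribotag libraries were higher than both mutant libraries in 8 of the 31 genes and lower than both in 6, against 29.7% and 24.4% of all genes. Fitted changes lay above 0 for 19 genes, against 53.0% of all genes, and at an unadjusted p under 0.05 there were 6 higher and 2 lower, against 11.8% and 7.46%. The median log2 fold change was 0.09 over the 31 genes and 0.04 over all genes, and moved with single libraries. Without Ribotag library 1 these medians were −0.05 and 0.11, without Ribotag library 2 they were 0.29 and −0.03, without mutant library 1 they were 0.32 and 0.09, and without mutant library 2 both were −0.01. Mmp2, lower in Ribotag RNA than in WT, had a log2 fold change of −0.18 against the mutant (SE 0.21, limma adjusted p = 0.667). Adamts1 overlapped between these groups, and its fitted change of 0.01 (SE 0.21, limma adjusted p = 0.989) had the other sign under median-ratio scaling and quantile normalization. Of the listed partners, Adam23, an adhesion protein of neural tissue, rose past the threshold, at 4.69 and 7.36 RPKM against 1.31 and 0.922 in the mutant (log2 fold change 1.99, SE 0.32, limma adjusted p = 0.0484), and was the single gene of its list of 14 tested to do so. It did not pass with no filter (limma adjusted p = 0.152), with a pseudocount of 1 (0.0572), after quantile normalization (0.0727) or without either mutant library (0.0963 and 0.219). No gene passed among 24 tested activators and other inhibitors or 23 tested matrix substrates.

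**Figure D4:**
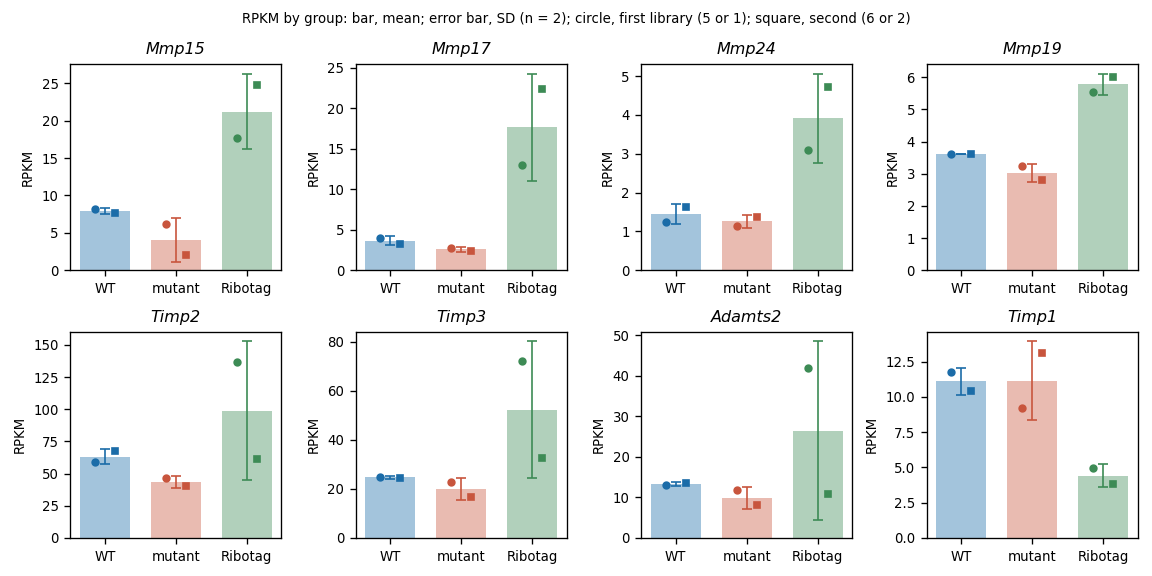
RPKM of 8 genes by group, with bars for the mean of 2 libraries, error bars for the SD and points for each library. Mmp15, Mmp17, Mmp24 and Mmp19 are highest in both Ribotag libraries, Timp2, Timp3 and Adamts2 are split between the Ribotag libraries, and Timp1 is lowest in them.

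The balance of inhibitors and proteases was described by the share of TIMPs in the summed RPKM of the 46 genes, which does not depend on scaling between libraries. The sum was 475 and 528 RPKM in WT, 403 and 339 in the mutant and 608 and 422 in Ribotag RNA. TIMPs made up 20.2% and 19.3% of it in WT and 19.5% and 20.7% in the mutant, so the genotypes overlapped although both mutant sums were under both WT sums. In Ribotag RNA the share was 35.2% and 23.1%, both above whole muscle. Without the gene of highest mean in each family (Mmp2, Adamts10 and Timp2), the share was 12.0% and 10.4% in WT, 12.2% and 14.3% in the mutant and 19.7% and 12.9% in Ribotag RNA, so that Ribotag library 2 fell within the mutant range. MMPs made up 47.0% and 46.1% in WT, 46.1% and 47.1% in the mutant and 37.2% and 50.2% in Ribotag RNA. ADAMTS genes fell between 32.2% and 34.6% in the whole-muscle libraries and stood at 27.6% and 26.7% in the Ribotag libraries.

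**Figure D5:**
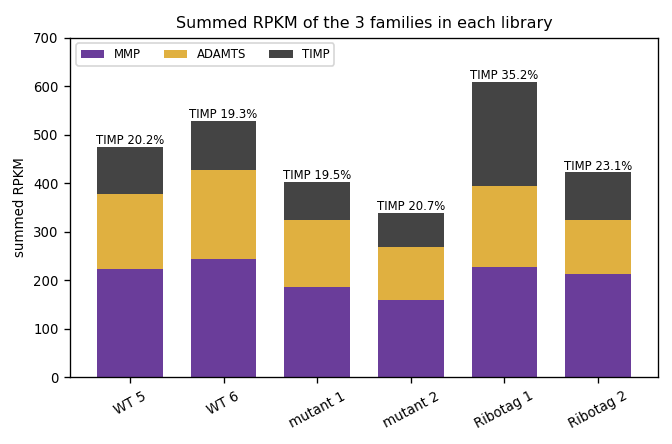
Summed RPKM of the MMP, ADAMTS and TIMP genes in each library (stacked bars), with the TIMP share printed above each bar. The share lies between 19.3% and 20.7% in whole muscle and is 35.2% and 23.1% in the Ribotag libraries.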

How the data were processed

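RNA-Seq libraries (2 per group, called biological replicates by the submitters) were aligned by the authors with STAR to mm9, per the submitters' processing notes, and deposited as RPKM per gene with a flag for values set to the floor of 1 read. Counting, strand and versions are not given in the sources used here. Symbols and coordinates came from GENCODE M21 (GRCm38), and protein-coding status from RefSeq. GENCODE calls Mmp1a a polymorphic pseudogene. Of 23076 entries, 21586 IDs matched and 3 had no value. Depth was computed from floor values, and precision for members under 0.5 RPKM is low.

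From the deposited RPKM, log2(RPKM + 0.5) was computed and fitted with limma 3.58.1 (R 4.3.3; trend, Benjamini-Hochberg over all genes tested) for genes with a mean of at least 0.5 RPKM in the 4 libraries compared. Fold changes are on that scale, which understates changes of low genes. Scripts were tested on simulated data. With 2 against 2 libraries an exact permutation test cannot go below 0.33, so none was used. P-values measure the spread between these samples. Genes given in full had a mean of at least 5 RPKM, passed the threshold, or had groups without overlap and a log2 change of at least 1. Members and lists were chosen with earlier results of these data known. Alternatives covered pseudocount, filter, scaling, trend, samples fitted, the replicate block and leaving out libraries.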

Additional observations from a re-analysis of the deposited data

How the results depend on the processing

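With 2 libraries a group, counts at an unadjusted p under 0.05 depended on single libraries in all comparisons, among members and among all genes. The counts of members past the threshold did so too. Leaving out each library in turn gave 0 to 2 members for mutant against WT, 0 to 17 for Ribotag against WT and 1 to 10 for Ribotag against mutant. The same fits called 0.0783% to 0.754%, 0.125% to 40.6% and 0.747% to 26.8% of all genes. Counts without overlap ranged from 0 to 1 (higher) and 22 to 28 (lower), from 5 to 11 and 13 to 22, and from 8 to 18 and 6 to 14, respectively. Of all genes, 19.2% to 26.2% and 45.6% to 57.6%, 26.7% to 46.0% and 35.4% to 54.3%, and 33.0% to 50.1% and 30.0% to 45.6% did not overlap with the same libraries left out. For mutant against WT, a fit of all 6 libraries in limma called 0 of 14052 genes against 24 (495 at an unadjusted p under 0.05, 7 of them members), no filter also called 0 (2155 unadjusted, 10 of them members), and Mmp11 went to an adjusted p of 0.987. The fit of all 6 libraries called 1 member for Ribotag against WT and 4 for Ribotag against mutant (0.957% and 4.83% of all genes). With no filter, the latter comparison called 0 members, against 0.485% of all genes. The replicate block for Ribotag against mutant called 5 members (Mmp15, Mmp17, Timp1, Timp2 and Timp3), and 842 genes against 171 without it. The labels give these groups the same numbers, but same-numbered deviations had a correlation of 0.168 over 14325 genes with only 2 pairs, so a pairing rests on the number alone. Without the highest gene of each family, the TIMP share was 11.2% in WT, 13.2% in the mutant and 16.3% in Ribotag RNA. The median for Ribotag against mutant was −0.05 under quantile normalization, and −0.05 and −0.01 without Ribotag library 1 or mutant library 2. Single genes were followed in 32 cases, those with an unadjusted p under 0.05 or a log2 change of at least 1 in size. Of their 392 values, 348 kept their side of the threshold and 1 lost a call, with no change of direction. The rest gained a call, but only 8 of them other than by leaving out a library. Among all members tested, 2, 1 and 1 changed sign under median-ratio scaling and 4, 0 and 4 under quantile normalization, in the 3 comparisons in order. Protein lengths and identities between TIMPs, as planned, were not run. The floor of 1 read lies far under 0.5 RPKM in every library, so depth limits the genes near the floor, which include Mmp21 and Timp4 beside the silent cluster.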
